A study of Homo sapiens with 79 samples.

Results

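The comparison described here is the fRIP of HNRNPH1 against input RNA in K562 cells. Its members are 6 of the 79 libraries of the study, namely 3 HNRNPH1 fRIP libraries and the 3 libraries of input set 1, chosen by the names of their columns in the gene and isoform tables. In fRIP, RNA is fixed to nearby proteins with a low dose of formaldehyde, a protein is pulled from the sonicated lysate by its antibody, and the RNA that comes with it is sequenced. The study made such libraries for 24 target proteins and for 3 sets of input RNA, all from the same cell line. K562 is a human leukaemia line of erythroid character that carries the BCR-ABL1 fusion.

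All 6 libraries came from K562 cells of one stated range of passages that received no treatment other than 0.1% formaldehyde for 10 min. The HNRNPH1 libraries were precipitated with an antibody from Bethyl (the labels name the target as hnrnph, and say nothing of whether the antibody also takes other family members), whereas input RNA saw no antibody. No control antibody library was used here, so a difference from input does not separate RNA held by HNRNPH1 from RNA held by beads or antibody alone, and no library of cells without HNRNPH1 was used. Replicates were made on different days from separate lysates. RNA values are FPKM, fragments scaled by transcript length and by the number of mapped fragments of a library, and a fold change is a difference of log2(FPKM + 1).

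HNRNPH1 is a nuclear RNA binding protein of the hnRNP H/F family, whose quasi-RRM domains recognise runs of guanines. It is best known as a regulator of splicing and of 3' end processing, where G-runs in exons and introns act as enhancers or silencers according to their position. The family also counts HNRNPH2, HNRNPH3, HNRNPF and the mitochondrial protein GRSF1. HNRNPU, another hnRNP of the panel, binds RNA through a different domain and serves below as the nearest comparison.

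Sequences of transcripts that were high or low in the HNRNPH1 fRIP are given first, since G-runs recur in what follows. Each is the stretch of 60 bases that held the most bases in runs of at least 3 guanines, searched in the coding exons of the most abundant coding transcript or in the exon of NEAT1, and read from GRCh37 (hg19) with the transcripts of GENCODE. Capitals mark the G-runs. Transcripts that rose in the fRIP come first.

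HNRNPH3, exon 3, chr10:70097618-70097677, plus strand: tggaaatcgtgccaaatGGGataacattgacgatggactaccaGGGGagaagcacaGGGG
PRPF19, exon 6, chr11:60669875-60669934, minus strand: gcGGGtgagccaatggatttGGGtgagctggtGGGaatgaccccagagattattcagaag
PABPN1, exon 1, chr14:23790760-23790819, plus strand: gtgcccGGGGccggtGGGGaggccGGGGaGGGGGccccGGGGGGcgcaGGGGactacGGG
NEAT1, exon 1, chr11:65192400-65192459, plus strand: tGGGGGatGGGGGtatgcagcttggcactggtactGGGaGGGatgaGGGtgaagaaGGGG

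Transcripts that fell in the fRIP follow, searched in the same way but over fewer bases. The search covered 342 bases for RPLP1, 525 for FTL and 581 for RPS3A. It covered 993 for HNRNPH3, 1512 for PRPF19, 888 for PABPN1 and 22743 for NEAT1. A longer search can find a richer stretch, so the stretches are not a comparison of both groups. That of FTL holds 12 bases in G-runs, against 11 in HNRNPH3 and 9 in PRPF19.

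RPLP1, exon 3, chr15:69747509-69747568, plus strand: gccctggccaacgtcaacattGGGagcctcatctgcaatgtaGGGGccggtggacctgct
FTL, exon 4, chr19:49469893-49469952, plus strand: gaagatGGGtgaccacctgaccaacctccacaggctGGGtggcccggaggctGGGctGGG
RPS3A, exon 3, chr4:152022127-152022186, plus strand: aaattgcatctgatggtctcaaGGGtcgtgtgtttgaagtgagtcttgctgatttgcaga

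Over the coding exons searched, G-runs numbered 22.2 per kb in HNRNPH3, 24.8 in PABPN1 and 10.6 in PRPF19, and 14.3 per kb in the exon of NEAT1. They numbered 8.77 per kb in RPLP1, 13.3 in FTL and 5.16 in RPS3A, against 11.6 per kb in ZNF580, which rose, so that PRPF19 and ZNF580 lay below FTL and the groups overlapped. A G-run is common in itself, as 99.8% of the mRNA transcripts tested held at least 1 GGG on the strand of the transcript, and 5.56% of all stretches of 60 bases held at least 3 separate runs. A match is a description of the sequence and not a binding site.

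Before the results, the libraries were compared. The value of 1 fragment, read from the steps between low FPKM of genes with 1 isoform, put the depth at 6.43 to 7.55 M fragments in the HNRNPH1 libraries and at 20.5 to 22.5 M in input set 1, so low values in the fRIP are less precise. Across the 25442 genes tested, log2 values correlated at 0.947 to 0.953 among HNRNPH1 libraries, at 0.973 to 0.983 among inputs and at 0.860 to 0.882 between both groups. The median gene stood at 5.00 to 5.28 FPKM in the fRIP and at 3.16 to 3.36 FPKM in input. Whether this reflects the scale of the libraries or their makeup was not tested. Centring each library on its median lowered the median fold change of all genes from 0.25 to -0.29, and the plot of the gene lists shows both scales. The K562 markers GATA1 (49.8 to 73.3 FPKM), TAL1 and BCR were present in all 6 libraries, while ALB of liver and COL1A1 of fibroblasts stayed below 1 FPKM and EPCAM and CD3D, which mark epithelium and T cells, were between 4.11 and 31.9 FPKM. The part of other cells in any result was not tested. Globin mRNAs differed within groups, HBG2 being 64.4, 69.4 and 289 FPKM in the fRIP and 178, 901 and 944 FPKM in input.

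A total of 5039 genes (19.8% of those tested) were higher in the HNRNPH1 fRIP than in input set 1 and 1610 (6.33%) were lower, by limma with a threshold of 0.05 on the adjusted p and of 1 on the size of the log2 fold change. All 3 fRIP libraries lay above all 3 input libraries in 39.5% of genes tested and below them in 18.3%. After centring, 2207 (8.67%) were higher and 4140 (16.3%) lower. All 2207 were among the 5039 and all 1610 among the 4140. The split into higher and lower thus rests on the scale chosen, with 75.8% of all calls being higher as deposited and 34.8% after centring. With the 9 libraries of all 3 input sets, 6237 genes were higher (24.5%) and 2011 lower (7.90%).

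The classes of RNA differed in how often they were called. Of 5343 lncRNA genes, 1460 were higher and 95 lower, with a median log2 fold change of 0.49. Of 13618 mRNA genes, 2543 were higher and 1231 lower, with a median of 0.17. With centring, the lncRNA counts were 683 higher and 300 lower and the mRNA counts 1108 higher and 3073 lower, and both medians fell below 0, at -0.05 and -0.38. Levels in input moved with this difference, as the median mRNA stood at 12.2 FPKM and the median lncRNA at 1.16 FPKM in input. Among mRNAs, the median log2 fold change was 0.30 below 1 FPKM, 0.36 from 1 to 10 FPKM, 0.01 from 10 to 100 FPKM and -0.48 above 100 FPKM of input. For lncRNAs in the same classes of input it was 0.37, 0.73, 0.26 and -0.24, above that of mRNAs in each class, with 29 lncRNAs in the last.

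The mRNAs of the hnRNP H/F family fell into 3 that rose and 2 that did not, against input set 1 as deposited. HNRNPH1 mRNA stood at 1379, 1207 and 1414 FPKM in the fRIP and at 463, 473 and 479.6 FPKM in input. The groups did not overlap, and the log2 fold change was 1.49 ± 0.14 (SE, adjusted p = 3.2e-13 by limma), or 0.95 and thus short of the threshold after centring. HNRNPH3, a smaller member of the family, showed the largest rise of the family, from 52.5, 63.1 and 59.7 FPKM in input to 339, 395 and 505 FPKM in the fRIP. Every fRIP library was more than every input library, and the log2 fold change was 2.79 ± 0.16 (adjusted p = 6.3e-22 by limma) and 2.24 after centring. HNRNPH2, the close paralog of HNRNPH1 on the X chromosome, was 47.7, 42.9 and 63.6 FPKM against 20.8, 22.2 and 19.7 FPKM, a log2 fold change of 1.24 that was 0.70 after centring and 0.99 against all 9 inputs, neither of which was called. In the annotation, 22.5% of the 25-base words of its transcript also occur in other genes.

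HNRNPF, which binds the same G-runs, was not called, with 176, 175 and 194 FPKM in the fRIP and 224, 207 and 209.7 FPKM in input. All 3 fRIP libraries lay below all 3 input libraries, but the log2 fold change was only -0.23 (adjusted p = 0.071 by limma). GRSF1 was 41.0, 38.9 and 50.9 FPKM against 50.7, 54.3 and 53.9 FPKM, and the groups overlapped.

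**Figure D1:**
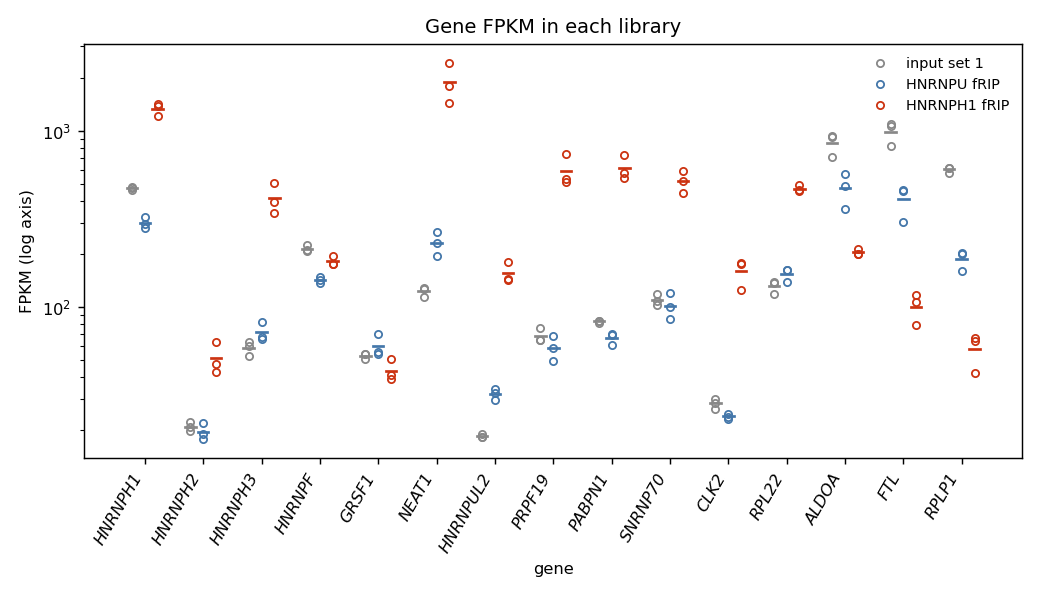
FPKM (log axis) of 15 genes in each library of input set 1 (grey), the HNRNPU fRIP (blue) and the HNRNPH1 fRIP (red); circles are the 3 libraries of a group and bars their mean. HNRNPH3, NEAT1, HNRNPUL2, PRPF19 and PABPN1 lie above both other groups in all 3 HNRNPH1 libraries, and FTL and RPLP1 lie below both.

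Among 25 tested mRNAs of other hnRNP proteins, the packaging and processing factors of nascent transcripts, 12 were higher and 1 was lower, with a median log2 fold change of 0.98 (7 higher, 2 lower and a median of 0.43 after centring). Among all genes 19.8% were higher and 6.33% lower, or 8.67% and 16.3% after centring. HNRNPUL2, a relative of HNRNPU, rose from 18.2, 18.3 and 19.1 FPKM to 144, 142 and 180.2 FPKM, the largest change of this list at 2.99. Part of its transcript is shared with a read-through gene, and 45.6% of its 25-base words occur in other genes. HNRNPA0, HNRNPA1 and TARDBP, all single-stranded RNA binding proteins, rose by 2.33, 1.59 and 1.74 on the log2 scale. PCBP1, an intronless gene of the poly(C) binding family, was the member that fell, from 65.6, 59.6 and 59.6 FPKM to 22.6, 25.2 and 29.9 FPKM. It lies opposite to PCBP1-AS1 over 73.2% of its transcript, and the library kit does not mark strand.

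The mRNAs of the splicing machinery included members called in both directions. Of 32 core spliceosome mRNAs, 5 were higher and 4 lower (15.6% and 12.5%, against 19.8% and 6.33% of all genes), with a median log2 fold change of -0.27, while after centring 4 were higher and 12 lower, with a median of -0.81. PRPF19, the ubiquitin ligase of the activated spliceosome, was 533, 511 and 734 FPKM in the fRIP and 64.7, 65.3 and 75.5 FPKM in input, a log2 fold change of 3.08 ± 0.26 (adjusted p = 6.2e-15 by limma). SNRNP70, the U1 snRNP protein that helps to define the 5' splice site, was 518, 441 and 589 FPKM against 119, 103 and 108 FPKM. Both mRNAs were thus several times their input level in every fRIP library, whereas SNRPD2, a short mRNA for a subunit of the Sm ring, went the other way. It stood at 49.1, 46.0 and 59.6 FPKM in the fRIP and at 284, 306 and 326 FPKM in input.

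Of 14 SR protein mRNAs, 3 were higher and 1 was lower, close to the 19.8% and 6.33% of all genes, with a median of 0.26. After centring 1 was higher and 2 were lower, with a median of -0.28. SRSF5 was the highest at 1.71 (340.3, 283 and 376 FPKM against 112, 96.6 and 92.9 FPKM). The one called lower as deposited was 1 of 2 entries named SRSF8, which was listed at about 0 in all 3 fRIP libraries and for which no fold is given. The other entry of that name was 9.35, 10.2 and 11.6 FPKM against 5.22, 5.06 and 5.50 FPKM and not called. Of 6 mRNAs of CLK and SRPK kinases, which phosphorylate SR proteins, only CLK2 was called, at 176, 125 and 177 FPKM against 28.6, 26.5 and 30.1 FPKM. For 20 cleavage and polyadenylation factors, 7 were higher and 5 lower, or 1 and 6 after centring (all genes 19.8% and 6.33%, or 8.67% and 16.3%). PABPN1, the nuclear poly(A) binding protein, rose from 83.3, 81.4 and 83.8 FPKM to 574, 538 and 724 FPKM (log2 fold change 2.86 ± 0.14, adjusted p = 7e-25 by limma). More than 50% of its 25-base words (53.6%) lie in a read-through gene with BCL2L2 as well. CPSF3, the endonuclease that cuts the 3' end, fell from 51.2, 53.4 and 54.6 FPKM to 16.6, 15.1 and 18.1 FPKM.

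Genes known as splicing or processing targets of hnRNP H/F proteins were listed separately. Of 15 tested, 6 were higher and 0 lower, with a median log2 fold change of 0.67, and after centring 2 were higher, with a median of 0.13. Among all genes 19.8% were higher, and 8.67% after centring, so that the centred 2 of 15 (13.3%) is close to the share of all genes. Among them were MAPT, MADD, SRC, MCL1 and SMN2, at 1.73, 1.57, 1.32, 1.22 and 1.11. MADD, a regulator of signalling by death receptors, was 171, 97.97 and 104 FPKM in the fRIP and 45.02, 38.2 and 37.3 FPKM in input, and the groups did not overlap. BCL2L1, the classical target whose splice site choice depends on G-runs, was 99.9, 71.4 and 86.4 FPKM against 111, 85.1 and 86.1 FPKM, with overlapping groups and a log2 fold change of -0.13 ± 0.15. EWSR1, HRAS and TCF3 were not called, at 0.87, 0.47 and 0.37.

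NEAT1, the noncoding scaffold of paraspeckles, gave one of the largest changes of an abundant RNA. It stood at 1426, 1788 and 2424 FPKM in the fRIP and at 115, 127 and 127 FPKM in input. The lowest fRIP library exceeded the highest input library by far, and the log2 fold change was 3.89 ± 0.26 (adjusted p = 3.3e-19 by limma) and 3.35 after centring. Of 15 nuclear lncRNAs, 5 were higher and 1 was lower, and the 5 (33.3%) are near the 27.3% of all lncRNAs that were higher (1.78% were lower). Among the 5 were KCNQ1OT1, the imprinting lncRNA of the 11p15 cluster, which rose from 3.34, 3.37 and 3.33 FPKM to 15.1, 17.7 and 15.2 FPKM, and MIAT, at 2.08. One of the 5, HOTAIRM1, was near 0 in 2 of 3 fRIP libraries. The member called lower is MALAT1, and its values cannot be read as a fall. It was listed at 0 in fRIP libraries 1 and 2 and at 24283 FPKM in library 3, with 5083 to 5547 FPKM in input, so that the zeros may be failed estimates and no fold is given.

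Of 15 cytoplasmic and snoRNA host lncRNAs, 4 were higher and 3 lower (26.7% higher, against 27.3% of all lncRNAs), with a median of 0.35 that was -0.19 after centring. H19, an imprinted lncRNA, rose from 3.29, 7.03 and 6.68 FPKM in input to 44.4, 82.5 and 117 FPKM, a log2 fold change of 3.58 that was 2.27 against all 9 inputs. LINC00657, also called NORAD, a cytoplasmic RNA that binds Pumilio proteins, rose from 56.3, 57.4 and 57.1 FPKM to 302, 281 and 327 FPKM. Of its 25-base words, 64.1% occur in other genes. ZFAS1 and GAS5, hosts of snoRNAs, fell by 1.63 and 1.31 on the log2 scale. Among lncRNAs named as antisense, 124 of 440 were higher and 6 lower, and among those named LINC, 27 of 149 were higher and 3 lower, shares of 28.2% and 18.1% against 27.3% of all lncRNAs, and these differences were not tested. After centring these counts were 70 and 33 for antisense and 18 and 9 for LINC genes. PRR7-AS1 was 156, 110.0 and 90.6 FPKM against 20.1, 13.4 and 15.2 FPKM, and LINC00482 was 32.7, 29.3 and 27.6 FPKM against 2.61, 2.56 and 2.00 FPKM. The library kit does not mark strand, so reads of an antisense RNA and of its partner cannot be told apart.

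By the rule for the largest changes, the mRNAs at the top were LINC00085 (a coding gene in the newer annotation), SAPCD1, ZNF580, ASPDH, ZNF428, FSCN2, ORMDL3, FBXL19, MSI2 and NOL3, with log2 fold changes of 3.13 to 3.87. ZNF580, a zinc finger gene at chr19:56146382-56154836, was 127, 98.4 and 137 FPKM in the fRIP and 9.32, 9.20 and 8.15 FPKM in input. ORMDL3, a regulator of sphingolipid synthesis, was 198, 187 and 179 FPKM against 21.5, 18.7 and 16.7 FPKM. In all of these except MSI2, GGG occurred at least 26.2 times per kb of the transcript, FBXL19 having 57.7 per kb and ZNF428 48.2 per kb, whereas the median over all tested mRNAs was 16.2 per kb. MSI2, an RNA binding protein of stem cells, was an exception with 6.05 per kb in its most abundant isoform, a fragment of 496 bases, yet it rose from 74.7, 64.7 and 72.0 FPKM to 688, 549 and 657 FPKM. The lncRNAs at the top were CTD-2012K14.4, GLYCTK-AS1, an entry listed as MIR142, NEAT1 and H19. The MIR142 entry matches MIR142HG, a noncoding transcript of chr17:56408240-56409884 and not the mature miRNA, and it rose from 16.9, 14.0 and 14.0 FPKM to 257, 212 and 266 FPKM. GLYCTK-AS1 was 49.4 FPKM in input library 1 and 3.44 and 4.15 FPKM in the others. CTD-2012K14.4 was 43.3, 20.02 and 25.01 FPKM in the fRIP, was listed at 0 in 2 input libraries and lies opposite to RIPOR1 over 100% of its length, so no fold is given.

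Most mRNAs of cytosolic ribosomal proteins were low in the fRIP. Of 78 cytosolic ribosomal protein mRNAs, 65 were lower and 1 was higher, with a median log2 fold change of -1.97, against 6.33% lower among all genes. After centring, 71 were lower. RPLP1, a protein of the ribosomal stalk, was 42.3, 66.3 and 64.4 FPKM in the fRIP and 578, 612 and 618 FPKM in input. The groups lay far apart, with a log2 fold change of -3.39 ± 0.18. RPL22, which also binds RNA outside the ribosome, was the member that rose, from 118, 136 and 138 FPKM to 458, 453 and 493 FPKM. RPL27A was 681, 960.3 and 1075 FPKM against 604, 673 and 658 FPKM and was not called. Many of these mRNAs have processed pseudogenes, and 98.5% of the 25-base words of RPS3A occur in other genes, so that the split of reads among copies is uncertain.

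Lower calls also outnumbered higher ones in the lists that follow, in which many members were called neither way. Of 76 nuclear-encoded respiratory chain mRNAs, 44 were lower and 1 was higher (median -1.27). Of 32 proteasome subunits, 11 were lower and 1 was higher (median -0.81). Of 76 replication-dependent histone genes, 24 were lower and 4 higher (median -0.52). The shares lower were 57.9%, 34.4% and 31.6%, against 6.33% of all genes, and 31, 20 and 48 were called neither way. Their median input levels were 79.8, 72.2 and 20.2 FPKM, and 12.5% of mRNAs from 10 to 100 FPKM of input were lower. After centring 56, 19 and 40 were lower (73.7%, 59.4% and 52.6%), against 16.3% of all genes and 30.3% of those mRNAs. ATP5F1, a subunit of the stalk of ATP synthase, fell from 241, 276 and 259.6 FPKM to 32.6, 27.4 and 38.3 FPKM. HIST1H1C, a linker histone, fell from 938, 1068 and 1078 FPKM to 178, 163 and 224 FPKM, while HIST1H4H rose from 74.0, 79.1 and 81.9 FPKM to 230.4, 243 and 234 FPKM but was not called against all 9 inputs (log2 fold change 0.87). FTL, the light chain of ferritin, was 78.7, 106 and 117 FPKM in the fRIP against 819, 1062 and 1084 FPKM in input. Among 17 glycolytic enzymes, 5 were lower (29.4%) and 1 was higher, with a median of -0.39. The median enzyme stood at 179 FPKM in input, and 34.9% of mRNAs above 100 FPKM were lower, with a median of -0.48. The list was thus no lower than mRNAs of like input. After centring 8 enzymes were lower, or 47.1% against 50.0% of those mRNAs. ALDOA, of which 94.9% of the 25-base words occur in other genes, was 199, 199.5 and 214 FPKM against 704, 929 and 918 FPKM. The ribosomal protein mRNAs were abundant in input (median 538.7 FPKM) and short (median length 612 bases), and the part of either in their values was not tested.

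Of 22 globin and erythroid genes, 6 were lower and 4 higher (median -0.46), and after centring 10 were lower and 0 higher (median -1.01). The 18.2% higher is near the 19.8% of all genes, and the 27.3% lower stands beside 6.33% of all genes, or 16.3% after centring. HBE1, the embryonic globin, was 39.6, 49.0 and 124 FPKM in the fRIP and 208, 645 and 636 FPKM in input, and the groups did not overlap although they varied widely within. For HBG2, the fall of 2.28 on the log2 scale had an adjusted p of 0.0075 by limma and lost its call without fRIP library 1 or without input library 2 or 3 (adjusted p = 0.052, 0.053 and 0.057 by limma). By contrast TAL1, an erythroid transcription factor, rose from 32.6, 46.0 and 49.6 FPKM to 69.3, 93.7 and 119 FPKM, a log2 fold change of 1.11 that was 0.57 after centring, 0.92 without fRIP library 3 and 0.93 without input library 1, each short of the threshold.

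mRNAs of 2 further lists were mostly higher on the deposited scale. Among the 13 mRNAs encoded by mitochondrial DNA, 9 were higher and 0 lower, with a median log2 fold change of 1.21 (5 higher and a median of 0.67 after centring), while 19.8% of all genes were higher and 6.33% lower (8.67% and 16.3% after centring). MT-ND5, a subunit of complex I, was 2058, 1582 and 2637 FPKM in the fRIP and 422, 424 and 415 FPKM in input. MT-ND6 lies next to it on the opposite strand, and reads where both meet cannot be told apart. It was 529, 396 and 711 FPKM against 145, 137 and 126 FPKM in input, while MT-CO1, a subunit of complex IV, was 426, 321 and 498 FPKM against 599, 551 and 535 FPKM and not called. Against the HNRNPU fRIP 2 of the 13 were higher and 1 was lower, near the 14.3% and 7.92% of all genes. Of 15 immediate early genes, whose mRNAs are short-lived, 9 were higher and 1 was lower (median 1.24), but after centring 4 were higher and 3 lower (median 0.70), beside the same shares of all genes against input as for the mitochondrial mRNAs. IER3 rose from 14.9, 10.9 and 12.0 FPKM to 57.3, 61.5 and 41.9 FPKM and JUN from 4.67, 9.35 and 9.20 FPKM to 17.3, 50.0 and 28.8 FPKM. JUND fell from 27.2, 25.3 and 26.1 FPKM to 11.1, 11.1 and 15.6 FPKM, a log2 fold change of -1.01 that fell short of the threshold without fRIP library 1 or 2 (both -0.94) or input library 1 (-0.99).

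**Figure D2:**
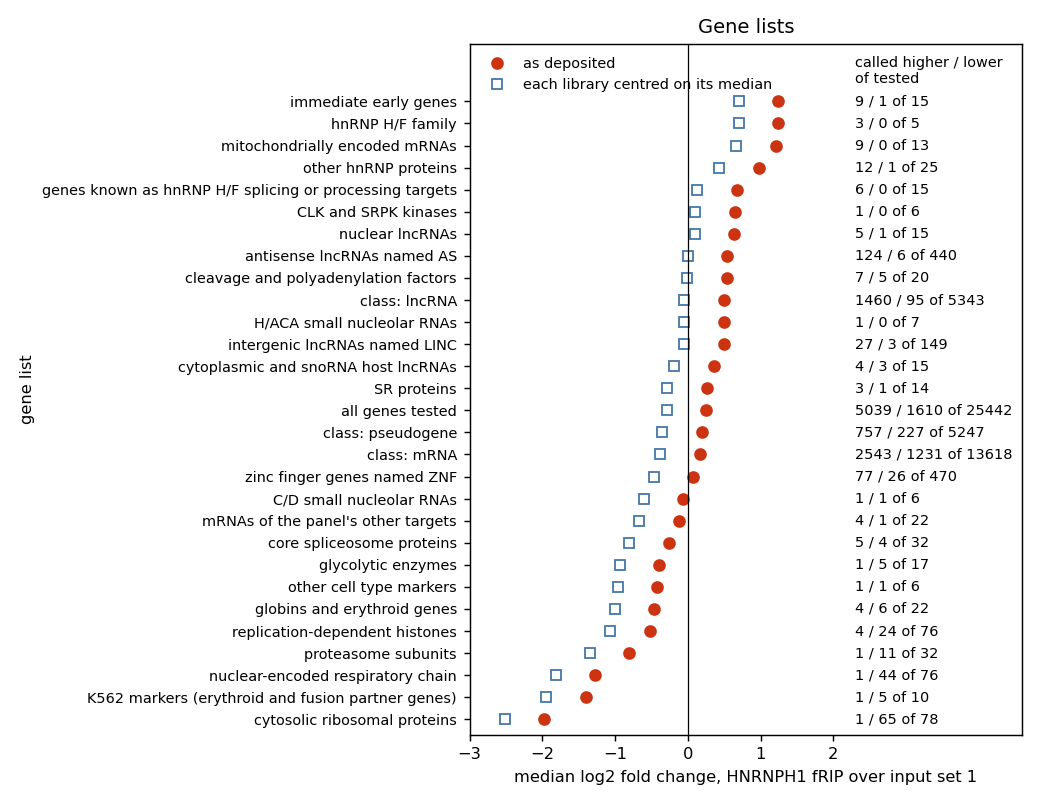
Median log2 fold change of each gene list between the HNRNPH1 fRIP and input set 1 (horizontal axis), on the deposited scale (red circles) and with each library centred on its median (blue squares); the numbers give genes called higher and lower of those tested, on the deposited scale. Ribosomal protein mRNAs lie lowest, at -1.97 or -2.52, and immediate early, hnRNP H/F and mitochondrially encoded mRNAs lie highest.

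The remaining lists are given by their counts. Zinc finger genes named ZNF had 77 of 470 members higher and 26 lower (16.4% and 5.53%, against 19.8% and 6.33% of all genes), and 31 higher and 86 lower after centring. Of 22 mRNAs that encode the other targets of the panel, 4 were higher and 1 was lower (2 and 7 after centring), and the 18.2% higher is near the share of all genes. Those that rose include KAT2B, which encodes the acetyltransferase PCAF (86.4, 89.1 and 93.0 FPKM against 17.5, 16.0 and 16.6 FPKM), and HNRNPU, at 1.74. Few snoRNAs were tested, 6 of the C/D and 7 of the H/ACA class, with 1 of each class higher and 1 C/D snoRNA lower.

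The lowest mRNAs and lncRNAs by the rule hold entries that cannot be taken at face value. RSC1A1 and RP11-109M17.2 were listed at about 0 in all 3 fRIP libraries and LUC7L2 in 2 of 3. The transcript of RSC1A1 lies within that of DDI2 for 94.7% of its length and the LUC7L2 entry within other genes for 100% of its length. RP5-940J5.9 lies opposite to GAPDH over 100% of its length and RP11-124N14.3 opposite to VIM over 87.7%, and GAPDH itself fell from 274, 365 and 363 FPKM to 56.1, 48.3 and 80.8 FPKM. For these lncRNAs, a change cannot be told apart from that of the mRNA on the other strand.

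The density of GGG in a transcript was related to the fold change. Over 13579 mRNA genes with a sequence, the Spearman correlation of GGG per kb with log2 fRIP over input was 0.461 ± 0.022 (mean and SD of the 3 HNRNPH1 libraries), and each library lay between 0.444 and 0.485. Genes are not independent replicates, so no p is given, and the points of a library share its depth and the input. In the decile of mRNAs with the lowest density (up to 7.36 GGG per kb), the median log2 fold change was -0.40, with 3.83% of genes higher and 22.5% lower. In the decile with the highest density (32.5 per kb or more), it was 1.03, with 50.6% higher and 1.25% lower. The medians rose at each step between them, and in each of the 3 libraries the top decile lay between 0.94 and 1.10. After centring, the lowest and highest deciles were at -0.95 and 0.49.

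**Figure D3:**
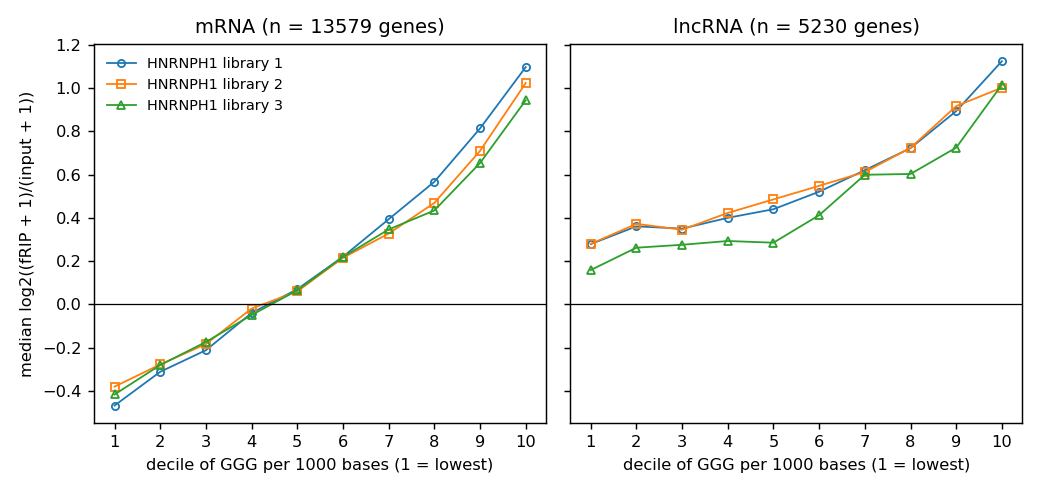
Median log2((fRIP + 1)/(input + 1)) of FPKM by decile of GGG per kb of transcript, for mRNA (left) and lncRNA (right) genes, with one line for each HNRNPH1 library and the mean of input set 1 as denominator. For mRNAs, all 3 lines go from below 0 in decile 1 to about 1 in decile 10.

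Base composition is tied to G-run density and was treated alongside. The correlation of the log2 ratio with GC content was 0.380 ± 0.033, and that with CCC, a motif of equal GC content, was 0.384 ± 0.034. Given GC content, the partial correlation of GGG was 0.273 to 0.288 over the 3 libraries, while that of CCC was 0.093 to 0.130. Within classes of GC content, GGG density was again related to the fold change, while CCC was not treated in this way. Among 2289 mRNAs of 45 to 50% GC, the tercile with the lowest GGG density had a median log2 fold change of -0.19 and the tercile with the highest density 0.36. Among 2104 mRNAs above 60% GC, these medians were 0.51 and 1.10. The difference between these terciles was 0.54 to 0.64 in all 6 GC classes.

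Among all 1024 words of 5 bases, TGGGG correlated most with the fold change (0.387), followed by GGGGG (0.362), GAGGG (0.358), AGGGG (0.355) and GGGAG (0.353), all counted on the strand of the transcript with overlaps. Of the 20 highest words, 12 held GGG and 5 held CCC. Given GC content, 17 of the 20 highest held GGG and 1 held CCC, whereas 40 of all 1024 words hold GGG. TGGGG was again first (0.216). The lowest words were rich in A and T, TGAAA (-0.332) and AAATT (-0.325) among them.

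For 5230 lncRNA genes the relation was weaker and not particular to guanines. The correlation was 0.250 ± 0.007 for GGG, 0.248 ± 0.010 for CCC and 0.222 ± 0.005 for GC content, and given GC content it was 0.124 to 0.147 for GGG and 0.112 to 0.134 for CCC. The decile of lncRNAs with the highest GGG density had a median log2 fold change of 1.00 and the lowest decile 0.28.

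Other features of mRNAs went less far. Transcript length was unrelated to the log2 ratio (-0.000056 on average), exon number gave -0.099 ± 0.024, the span of the gene -0.148 ± 0.004 and the level in input -0.240 ± 0.060. The last of these is not independent of the ratio, which has the input as its denominator.

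Among the 24 fRIP targets, HNRNPH1 had the highest mean correlation with GGG density over mRNAs. CBP, an acetyltransferase, followed at 0.400 ± 0.039 with a range of 0.363 to 0.440, just below the lowest HNRNPH1 library, and CTCF, a zinc finger protein of chromatin loops, had 0.348 ± 0.080. For CCC as well HNRNPH1 had the highest mean (0.384), above CTCF (0.352) and CBP (0.348), so the first rank by mean is not particular to G-runs. Unlike for GGG, the libraries overlapped for CCC, at 0.353 to 0.420 for HNRNPH1, 0.244 to 0.422 for CTCF and 0.309 to 0.390 for CBP. Over lncRNAs its mean for GGG (0.250) lay below those of CBP (0.338), CTCF (0.306) and EZH2 (0.262). For GC content over mRNAs the order was different, as CBP (0.446) and CTCF (0.430) were above HNRNPH1 (0.380). HNRNPU had -0.146 ± 0.110 for GGG. All of these ratios share the 3 input libraries. The direct difference between both hnRNPs, which uses no input, correlated with GGG at 0.579, with CCC at 0.481 and with GC content at 0.522.

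**Figure D4:**
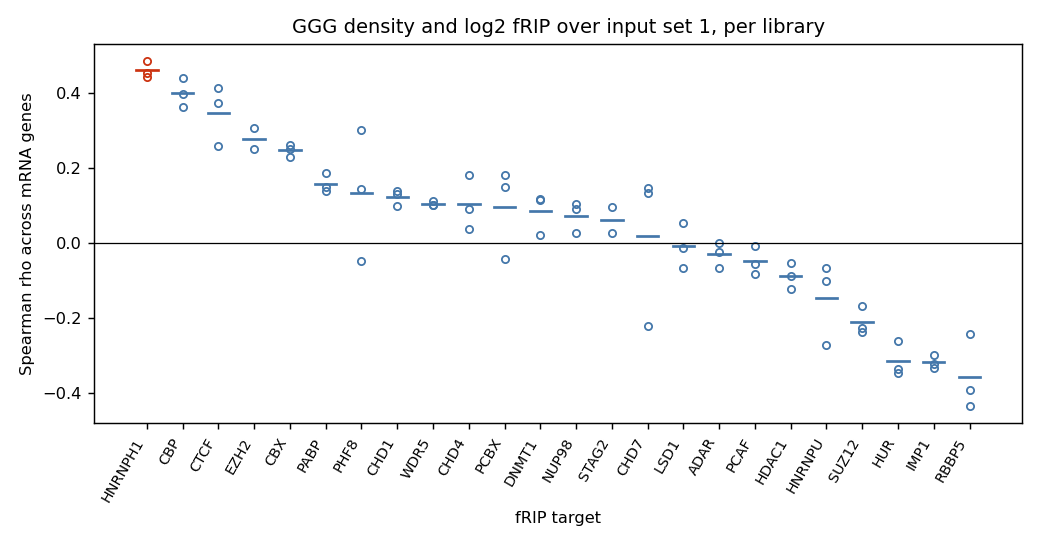
Spearman correlation across 13579 mRNA genes between GGG per kb and log2 fRIP over input set 1, with a circle for each library and a bar for the mean of each fRIP target, ordered by the mean. The 3 HNRNPH1 libraries (red) lie at 0.444 to 0.485 and the 3 of CBP at 0.363 to 0.440, and all libraries of HNRNPU and RBBP5 lie below 0.

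Compared directly with the HNRNPU fRIP, 3649 genes (14.3%) were higher in the HNRNPH1 fRIP and 2016 (7.92%) were lower, with 2932 and 2723 after centring, in a fit without pairing. With the replicate number as a block these were 3671 and 2021. HNRNPH3 was 65.6, 67.4 and 82.7 FPKM in the HNRNPU fRIP and was higher in the HNRNPH1 fRIP, by 2.49 on the log2 scale. NEAT1 was 229.9, 267 and 196 FPKM with HNRNPU, a difference of 3.00 ± 0.26 (SE) with an adjusted p of 7.4e-15 by limma. KCNQ1OT1 was not called between both, at 20.9, 25.1 and 19.6 FPKM with HNRNPU and a difference of -0.42. Of 25 mRNAs of other hnRNP proteins, 13 were higher with HNRNPH1 than with HNRNPU and 0 were lower. Of 78 ribosomal protein mRNAs, 59 were lower with HNRNPH1 and 1 was higher.

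A gene was counted as higher than in every other fRIP when it passed against input and in the direct contrast with each of the other 23 targets. This held for 425 genes (1.67% of those tested), of which 175 were mRNA, 146 lncRNA and 59 pseudogene entries and 44 were not in the annotation. The genes tested held 13618 mRNA, 5343 lncRNA and 5247 pseudogene entries. After centring 113 passed, of which 106 were among the 425. NEAT1 was one of them, and its smallest difference was 2.87, to the CBP fRIP. HNRNPUL2 passed with a smallest difference of 2.10 (to SUZ12), MSI2 with 1.90 (to SUZ12), PRPF19 with 1.66 (to PABP) and HNRNPH3 with 1.10 (to DNMT1). HNRNPH1 mRNA itself was called higher against 18 of the 23 and stood highest in the SUZ12 fRIP, by 0.54. The other fRIP nearest to HNRNPH1 was HNRNPU for 114 of the 425 genes, CBP for 58 and ADAR for 57.

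Isoform values set intron-containing transcripts apart from spliced ones. Retained-intron isoforms are annotated transcripts that keep at least part of an intron of a coding transcript. Of 104506 isoforms tested, 18119 (17.3%) were higher in the HNRNPH1 fRIP than in input and 9492 (9.08%) lower. Of 19390 retained-intron isoforms, 6504 (33.5%) were higher and 503 (2.59%) lower, and of 42461 protein-coding isoforms, 4907 (11.6%) were higher and 6381 (15.03%) lower. With centring, which shifts isoform values by -0.19, 27.8% of retained-intron isoforms and 9.02% of coding isoforms were higher, against 13.8% of all isoforms. Isoforms with nonsense-mediated decay were called higher and lower about equally, with 754 and 768 of 8351, on the deposited scale. After centring 561 were higher and 977 lower (6.72% and 11.7%, against 13.8% and 11.3% of all isoforms). Isoform FPKM are estimates from short reads, and short isoforms that overlap longer ones are the least certain.

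Within a gene, the share of FPKM in retained-intron isoforms does not depend on the scale of a library. Over 5213 mRNA genes with both kinds of isoform and at least 5 FPKM in all 6 libraries, the mean share was 38.4%, 37.7% and 36.9% in the HNRNPH1 libraries and 22.8%, 21.5% and 21.6% in input. The groups did not overlap, with 37.7% ± 0.75 against 21.99% ± 0.75 (SD, n = 3 each). The exact permutation test gave p = 0.10, two-sided, the smallest that 3 against 3 libraries allow. In 3338 of the 5213 genes (64.0%) all 3 fRIP shares exceeded all 3 input shares, and in 335 (6.43%) they were below. The HNRNPU fRIP had 28.8% ± 1.2, which lay between both groups (unpaired exact permutation p = 0.10 against HNRNPH1, two-sided, n = 3 each). Over 3753 genes with isoforms of the kind, the share in isoforms with nonsense-mediated decay was 10.3% ± 0.073 in the HNRNPH1 fRIP and 11.5% ± 0.20 in input.

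Of the 24 fRIP targets and 3 input sets, HNRNPH1 had the highest mean retained-intron share. ADAR, the editing enzyme of double-stranded RNA, came next with 30.3 to 32.2%, followed by SUZ12 of the Polycomb complex with 30.4 to 31.7%, and no library of another target reached the lowest HNRNPH1 library. Depth differed among targets, with about 2.15 M fragments in ADAR and 22.7 M in SUZ12 libraries on average. Libraries of PHF8, RBBP5 and HNRNPU with 5.00 to 8.52 M fragments, a range that holds the 6.43 to 7.55 M of HNRNPH1, had shares of 24.1 to 29.7%. WDR5 library 3, with 8.14 M fragments, had a share of 14.5%. The part of depth in these shares was not tested.

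**Figure D5:**
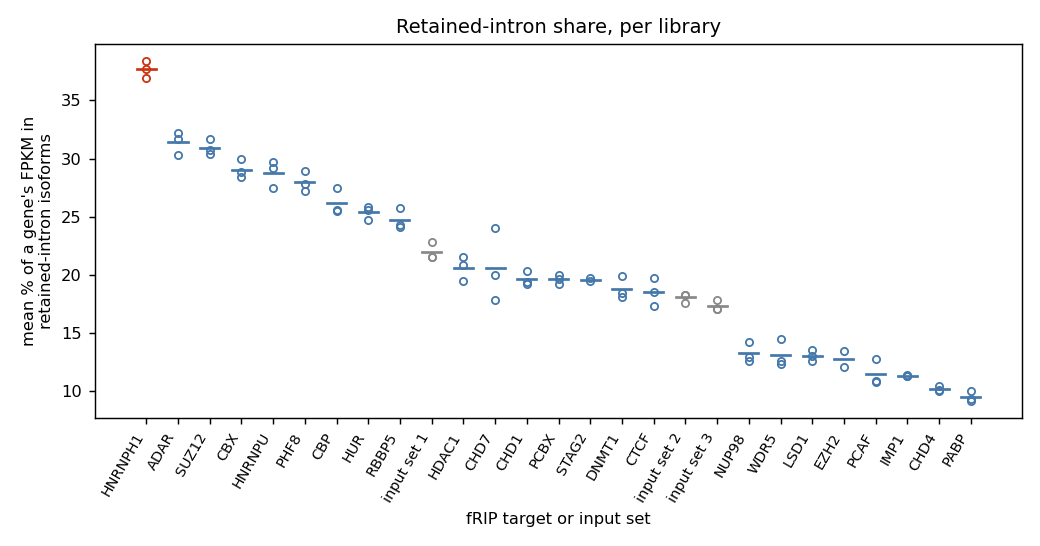
Mean percent of the FPKM of a gene that lies in retained-intron isoforms, for each library (circles) and as the mean of each fRIP target or input set (bars), ordered by the mean. The 5213 mRNA genes were chosen by their FPKM in the HNRNPH1 and input set 1 libraries only. HNRNPH1 libraries (red) lie at 36.9 to 38.4%, input set 1 (grey) at 21.5 to 22.8%.

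GGG density and the fold change were also related among isoforms, most of all among those with retained introns. The correlation was 0.414 ± 0.022 over 19390 retained-intron isoforms, 0.239 ± 0.012 over 42461 coding isoforms and 0.219 ± 0.013 over isoforms with nonsense-mediated decay (mean and SD of 3 HNRNPH1 libraries). In the HNRNPU fRIP it was 0.072 ± 0.039 for retained-intron isoforms, and no other target was treated at this level. Neither GC content nor CCC was treated among isoforms, so the relation is not set apart from base composition. The median density was alike in both kinds of isoform, at 18.2 and 16.6 GGG per kb.

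Isoforms of the HNRNPH1 gene, at chr5:179041179-179061785 on the minus strand, went different ways. Of its 47 tested isoforms, 14 were higher and 3 lower, against 17.3% and 9.08% of all isoforms. Of its 18 retained-intron isoforms, 8 were higher and 0 lower, against 33.5% and 2.59% of all isoforms of that class, and 10 were not called, of which several were near 0 in all libraries. Isoform HNRNPH1-227, a retained-intron transcript of 5564 bases, was 148, 115 and 134 FPKM in the fRIP and 25.7, 22.4 and 21.95 FPKM in input. Isoform HNRNPH1-236, with 620 bases the most abundant retained-intron transcript of the gene in the fRIP, was 240.3, 211 and 244 FPKM against 52.8, 55.3 and 55.2 FPKM. HNRNPH1-223, a retained-intron transcript of 2444 bases, was 43.4, 34.6 and 49.9 FPKM against 30.9, 27.9 and 33.98 FPKM and was not called. Coding isoforms went both ways, since HNRNPH1-225 (14 exons) rose from 3.31, 3.13 and 4.66 FPKM to 23.6, 35.5 and 28.6 FPKM and HNRNPH1-203 (14 exons) fell from 10.3, 14.7 and 16.3 FPKM to 0.46, 2.68 and 3.63 FPKM. HNRNPH1-246, a coding isoform of 13 exons, was 18.8, 22.4 and 22.2 FPKM against 24.6, 31.3 and 31.2 FPKM and not called. The stretch of intron that HNRNPH1-236 keeps, outside the exons of all coding isoforms of the gene, is given with G-runs in capitals, leaving out 1 base.

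HNRNPH1-236, exon 1, chr5:179046409-179046468, minus strand: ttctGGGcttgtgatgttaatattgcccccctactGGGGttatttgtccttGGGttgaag

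The retained-intron isoforms with the largest changes were those of EIF4A2, KRIT1, LRBA, HSP90B1 and CANX. HSP90B1-202, from the gene of an endoplasmic reticulum chaperone, was 117, 96.9 and 74.5 FPKM in the fRIP and 1.26, 0.92 and 1.67 FPKM in input, a log2 fold change of 5.40. EIF4A2-225, from the gene of a translation initiation helicase, was 61.9, 47.3 and 86.2 FPKM and listed at 0 in all 3 input libraries, as was LRBA-207, so that no fold is given for them. CANX-204 was 70.4, 55.2 and 61.5 FPKM against 3.05, 0 and 0 FPKM. These 5 lie far above their input in every fRIP library, but they were picked for their size out of 19390 isoforms.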

How the data were processed

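FPKM of genes and isoforms were deposited by the authors as tables with 1 column per library. Reads were aligned to hg19 with TopHat and quantified with the Cufflinks tools Cuffdiff and Cuffnorm (CASAVA 1.4 is also named in the submitters' processing notes). The authors' own fold changes and p-values were not used.

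Features were kept when 2 or more libraries reached 1 FPKM (25442 of 48453 genes and 104506 of 185661 isoforms), and log2(FPKM + 1) was fitted with limma 3.58.1 (trend, R 4.3.3) over all 79 libraries, which share 1 estimate of the spread. Benjamini-Hochberg adjusted p under 0.05 with a log2 fold change beyond 1 counted as a call. Input set 1 was used because the input value of the authors' comparison lay within 0.1 (log2) of its mean for 99.96% of genes, against 28.8% and 27.6% for the other sets. The p-values measure the spread between these libraries. Tables were read with Python 3.11.15, pandas 2.3.3, numpy 2.4.6 and scipy 1.17.1. Classes, sequences and coordinates came from GENCODE 44 lifted to GRCh37, and 24279 of the genes tested were matched. Motif densities are for the transcript most abundant in input. Depth was estimated from the step between low FPKM values, 86.8 to 88.5% of which lay within 0.15 of a whole multiple in these 6 libraries, so it is approximate and was used in no test. Scripts were tested on simulated data.

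Named genes were the hnRNP H/F family, the 10 mRNAs and 5 lncRNAs with the largest change each way, the extremes of each list with at least 5 FPKM on average, and the genes furthest from all other fRIPs. Other members of the lists were named to account for counts, after their values were seen. The members, lists and printed sequences were chosen with earlier results of these data known. Some items are not reported here.

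Same-numbered HNRNPH1 and input libraries deviated together with r of 0.25, -0.03 and 0.12, so they were not taken as pairs. With HNRNPU the values were 0.18, 0.15 and 0.28, which meets the rule for pairs, so a fit with the replicate block was run as well, and the values printed are without it unless stated. Alternatives were other inputs, centring, pseudocounts of 0.1 and 0.5, other filters, a fit of only the 6 libraries, a replicate block, other motifs, the longest transcript and leaving out each library.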

Additional observations from a re-analysis of the deposited data

How the results depend on the processing

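Leaving out each HNRNPH1 or input library in turn, the counts against input stayed within 1.5 times: 4920 to 5257 genes were higher and 1550 to 1696 lower than in input, 17143 to 18206 isoforms were higher and 8640 to 8929 lower. Leaving out only HNRNPH1 libraries, 412 to 487 genes were higher than in every other fRIP, and 3536 to 3770 genes were higher and 2012 to 2109 lower than with HNRNPU, and no HNRNPU library was left out. The retained-intron difference stayed at 15.3 to 16.1 percentage points, and the GGG correlation at 0.448 to 0.469 for mRNA and 0.245 to 0.253 for lncRNA. Centring each library on its median gave 2207 genes higher and 4140 lower, and 113 higher than in every other fRIP. Centring with all 9 inputs gave 2186 and 5631 genes, and 15322 isoforms lower. The cause was not tested. The GGG correlation over mRNAs was 0.42 with all 9 inputs, and the correlation was 0.431 with GGGG, 0.368 with GGGA and 0.384 with CCC. Over lncRNAs it was 0.199 with all 9 inputs, 0.233 from 5 FPKM of input, 0.26 with a pseudocount of 0.1, 0.221 with GGGG and 0.176 with GGGA. The retained-intron difference of 15.7 points was 18.5 with all 9 inputs and 17.3 as a median over genes, a summary added after the data were seen.

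With the replicate number as a block over all libraries, 5063 genes were higher and 1620 lower than in input and 18242 isoforms were higher and 9680 lower. In the fit of only the 6 libraries with the replicate block these were 4822, 1563, 13779 and 7057. For the paired comparison with HNRNPU the block gave 3364 genes higher and 1827 lower in the fit of only the 6 libraries, against 3245 and 1765 without it. The block changed no call of a named gene against input. Against HNRNPU it changed none of 115 over all libraries, and in the fit of only the 6 libraries 3 gained a call (RP5-1120P11.1, HBE1 and HBG2) and 0 lost one. Of 115 named genes, 98 kept their call after centring, 11 lost it and 6 gained one. With all 9 inputs 4 lost it (HNRNPH2, PSMD4, HIST1H4H and DIAPH3-AS1), without HNRNPH1 library 1 5 did (RP5-1120P11.1, SNRPB2, HBG2, JUND and DIAPH3-AS1) and without input library 1 4 did (PSMD4, JUND, DIAPH3-AS1 and TAL1). Leaving out any other library cost at most 2 calls, and the fit of only the 6 libraries cost 1 (HBG2). The lower depth of the fRIP libraries limits what can be said of genes near 1 FPKM. Fits of only the 6 libraries were not run for the comparison with every other fRIP, which needs the other libraries.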
